A study of Homo sapiens with 3 samples.

Results

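The comparison set 1 library of GFP-SAS cells given the siRNA siAkt1-22 against 1 library given the non-targeting siRNA siNT, 2 of the 3 libraries of the series. It was read across the 18239 genes that the array annotation names, of which 12779 had a mean log2 signal at or above 3.93, the 30th percentile, and are the genes measured below. GFP-SAS cells, as the labels name them, come from SAS, a line established from a human tongue carcinoma, with no further detail on how the GFP was introduced or on clones. Every group had 10 nM siRNA for 24 h, and no untransfected cells are among the libraries used here. The siAkt1-58 library, from the same cells given another siRNA against AKT1, served only to show which differences were private to siAkt1-22. With 1 library a side there is no replicate spread, so all differences below are sizes with no test, and the number of arrays limits how precise they are. They are written as log2 differences from siNT, and a difference of 1 is 2-fold.

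An siRNA is a short duplex whose guide strand is loaded onto an Argonaute protein and directs cleavage of an mRNA it pairs with in full. A guide strand can also lower other mRNAs through short matches to its seed, in the manner of a microRNA, and double-stranded RNA can be sensed by proteins that switch on interferon genes. For these reasons a pair of siRNAs with different sequences against 1 target is commonly compared. AKT1 itself is a serine/threonine kinase downstream of PI3K that promotes growth, glucose uptake and survival, and that keeps FOXO transcription factors out of the nucleus.

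Markers of an epithelial origin, which the labels do not state, were read first. Of 7 squamous epithelial markers on the array, 6 were at or above the filter level, among them EPCAM, an epithelial adhesion molecule, with log2 values of 11.4 (siNT), 11.7 (siAkt1-22) and 11.3 (siAkt1-58). The basal keratin KRT14 read 3.65 with siNT and 3.67 in both other libraries, below that level. All 7 fibroblast markers and all 5 endothelial markers stayed at or below 4.50 in every library. The leukocyte genes PTPRC, CD3E, CD14 and LYZ had the same value in all 3 libraries, at most 3.56. The leukocyte and macrophage gene CD68 read 6.33, 6.75 and 7.14 in the order siNT, siAkt1-22 and siAkt1-58, and the neuronal gene SYT1 read 5.53, 6.78 and 6.07.

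AKT1 had a log2 value of 6.75 with siNT and 3.67 with siAkt1-22, a difference of -3.08 that placed it number 17 from the bottom of the 12779 genes. The knockdown value lay under the filter level, where dim signal limits what can be read. With siAkt1-58 AKT1 read 3.47, also under that level, a difference of -3.28, so its class was shared. A second AKT1 probe set read 5.31 with siNT, 4.07 with siAkt1-22 and 4.02 with siAkt1-58. AKT2, a close relative, was also lower, at 7.71 with siNT, 6.74 with siAkt1-22 and 7.69 with siAkt1-58. Another AKT2 probe set read 5.45, 3.44 and 5.44, so that both of its brightest probe sets were lower in the siAkt1-22 library alone. The other AKT2 probe sets at or above the filter level were dim and showed differences from -0.17 to 0.07. Among 28 measured members of the PI3K pathway the median difference was 0.07. AKT1 was the only one at least 2-fold lower (3.57%, against 5.97% of all genes). AKT1S1, an inhibitory partner of mTOR that AKT phosphorylates, was higher by 1.22, and the catalytic subunit PIK3CD by 1.06. These 2 made up 7.14% of the members, against 4.40% of all genes at least 2-fold higher. The dimmest AKT1S1 probe set gave 0.26, and a second PIK3CD probe set at or above the filter level showed no difference.

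Past a 2-fold limit, 562 genes (4.40% of those measured) read higher in the siAkt1-22 library and 763 (5.97%) read lower. The large differences were mostly decreases, with 139 genes at least 4-fold lower against 44 at least 4-fold higher, and 19 against 3 at 8-fold. The median over all genes measured was 0, with 48.5% above siNT, 35.7% below and 15.8% at exactly the same value. With siAkt1-58, measured against the same siNT library, 1.54% of genes lay past that limit on the higher side and 3.58% on the lower side. Spiked poly-A control RNAs, 24 probe sets added before labelling, read lower with siAkt1-22 by a median of 0.56 in size (from -1.25 to -0.35) and had a median of -0.01 with siAkt1-58. Their part in the differences was not tested.

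The siAkt1-58 library divided these genes. A difference was called private to siAkt1-22 where siAkt1-58 lay within 0.5 of siNT, shared where it was at least 1 on the same side, intermediate from 0.5 to 1, and opposite where it was 0.5 or more on the other side. Private genes were the largest class, with 274 higher (2.14% of genes measured) and 413 lower (3.23%), or 51.8% of the 1325 genes past 2-fold. Shared genes numbered 94 higher (0.736%) and 150 lower (1.17%), intermediate ones 167 (1.31%) and 146 (1.14%), and opposite ones 27 (0.211%) and 54 (0.423%). All these values share the siNT library.

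Private genes that were lower were brighter than those that were higher. In the siAkt1-58 library the median log2 value was 6.17 for the private higher genes, 8.10 for the private lower genes and 6.53 for all genes measured. The rule ties the siAkt1-58 value of a private gene to its siNT value, so this is a description of the classes. Of the 2556 brightest genes (8.46 and above) 8.80% read at least 2-fold lower with siAkt1-22 and 2.39% higher by as much. In the next group down (7.12 to 8.46) the lower share was 10.0%. The share of higher genes was largest in the middle group, at 6.65%. Of the 2558 dimmest genes (4.72 and below) these shares were 1.29% and 2.89%. A dim gene has little room to read lower on an array, so the low count there is in part a limit of the signal. Private lower genes also spanned more of the genome, with a median of 47629 bases from start to end against 25879 for private higher genes and 27864 for all genes measured. This held for lower genes in general, with 46076 bases for all genes at least 2-fold lower and 42597 for the shared ones.

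**Figure D1:**
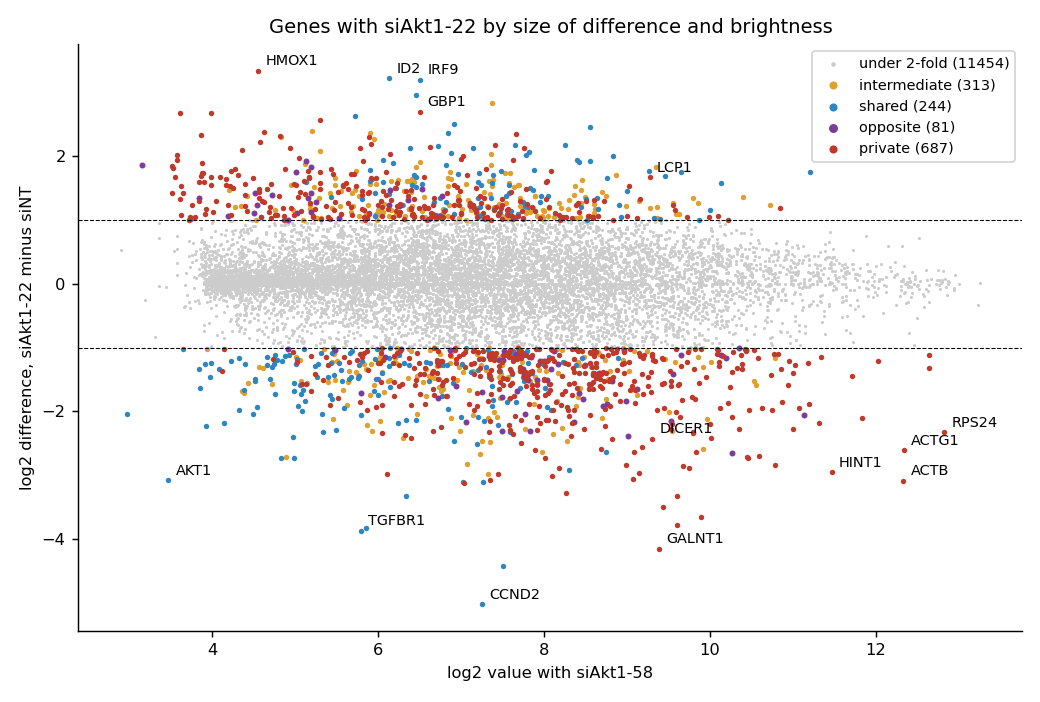
Each point is 1 of 12779 genes, plotted by its log2 value with siAkt1-58 (horizontal axis) and its log2 difference of siAkt1-22 from siNT (vertical axis); colours give the class by the siAkt1-58 value and dashed lines mark 2-fold. Private lower genes (413) lie toward the bright side, with ACTB, ACTG1, RPS24 and HINT1 at the right, whereas private higher genes (274) are spread over the axis and few at its bright end.

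The genes with the lowest differences were CCND2, TMEM200A and GALNT1. CCND2, a D-type cyclin that drives entry into the cell cycle, read 8.55 (siNT), 3.53 (siAkt1-22) and 7.25 (siAkt1-58). The siAkt1-22 library was far below both others, and siAkt1-58 was itself lower than siNT by -1.30. A second CCND2 probe set gave -2.05 and -1.08. TMEM200A, a membrane protein gene, read 8.68, 4.26 and 7.51 in the same order. Its second probe set gave -1.68 with siAkt1-22 and -0.96 with siAkt1-58. GALNT1, which attaches the first sugar of mucin-type O-glycans, read 9.0, 4.84 and 9.38, and all 4 of its bright probe sets were lower with siAkt1-22, by -3.30 to -4.20. Of the 15 genes with the lowest differences, 8 were private and 7 shared, and in 11 at least 2 probe sets were past 2-fold.

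The private members of that group had unrelated roles. PPIL1, a spliceosomal prolyl isomerase, read 9.97 with siNT, 6.18 with siAkt1-22 and 9.60 with siAkt1-58. PRKACA, a catalytic subunit of protein kinase A, read 9.0, 5.51 and 9.43, and AIDA, an axin partner, read 9.62, 6.29 and 9.60. In each the siNT and siAkt1-58 libraries lay close together and siAkt1-22 stood far below. PRKACA rests on 1 probe set, as its others were below the filter level. LPAR1, a lysophosphatidic acid receptor, was at -3.28 with siAkt1-22, and TPMT, a thiopurine methyltransferase, at -3.12. The TPMT probe sets that ranked below its brightest gave -0.65 to -0.74 with siAkt1-58, so its private place rests on the brightest one. TGFBR1, which encodes a signalling receptor of TGF-beta, read 8.56, 4.69 and 5.79 and was shared, but its other probe sets were below the filter level. The shared members PM20D2 (-3.83), LDLRAD3 (-3.33), EFNB2 (-3.11), an ephrin ligand, and PRTFDC1 (-3.11) were lower with siAkt1-58 as well, by -1.39 to -1.74.

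The genes with the highest differences were HMOX1, ID2 and IRF9. HMOX1, the inducible heme oxygenase, read 4.39 (siNT), 7.73 (siAkt1-22) and 4.56 (siAkt1-58), a 10.2-fold difference with siAkt1-22 that siAkt1-58 did not show. Its 3 probe sets gave 3.34, 2.65 and 2.02. It belongs to a list of 22 measured NRF2 and heme genes with a median of 0.12. In that list MAFG (1.12), a partner of NRF2, was the other member at least 2-fold higher. BACH1 (-1.74), a repressor of HMOX1, was the one at least 2-fold lower. The list's shares were 9.09% higher and 4.55% lower, beside 4.40% and 5.97% of all genes. ID2, an inhibitor of basic helix-loop-helix factors, read 4.82, 8.04 and 6.13 with a single probe set, and the oxytocin receptor gene OXTR read 5.25, 8.22 and 6.46. Both were highest with siAkt1-22 and in between with siAkt1-58. C11orf54 was at 2.84, 2.56 and 2.82 in its 3 probe sets with siAkt1-22, and the brightest gave 0.93 with siAkt1-58. CDKN2B, which encodes a CDK4/6 inhibitor, and the tetraspanin gene TSPAN31 were shared, with 2.45 and 2.50 with siAkt1-22 beside 3.08 and 2.37 with siAkt1-58. The opsin gene OPN3 was at 2.63 and 1.20, PEX39 at 2.40 and 0.86, and BLNK, an adaptor of B cell receptor signalling, at 2.37 and 0.85. IDNK (2.68), XKR3 (2.67), EXOC3-AS1 (2.58) and HCP5 (2.38) were private. A second HCP5 probe set at or above the filter level gave only 0.56 with siAkt1-22 and 0.23 with siAkt1-58. XKR3 read 3.76 with siNT and 3.62 with siAkt1-58, so it passed the filter only through its siAkt1-22 value, as did 17 of the 562 higher genes, 16 of them private. Of the 15 highest genes, 6 were private, 6 shared and 3 intermediate, and 7 of the 15 highest genes had only 1 probe set at or above the filter level.

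**Figure D2:**
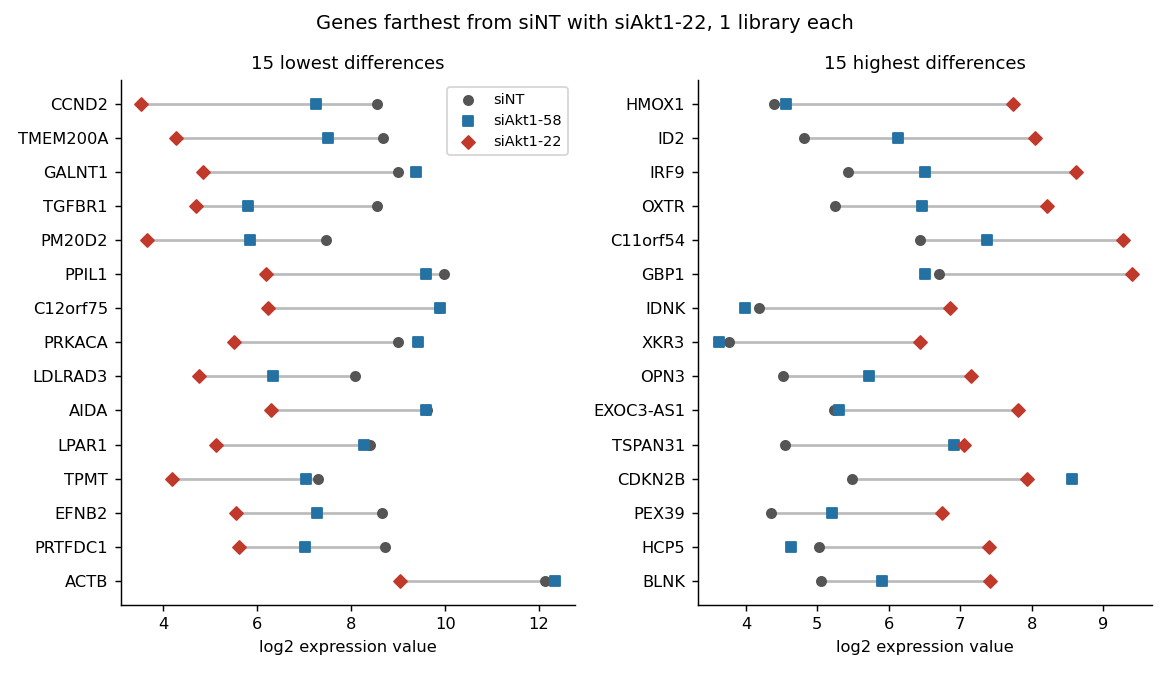
Log2 expression values of the 15 genes with the lowest (left) and the 15 with the highest (right) difference from siNT with siAkt1-22, in the siNT (circles), siAkt1-58 (squares) and siAkt1-22 (diamonds) libraries, 1 each. For GALNT1, AIDA, ACTB and HMOX1 the square lies beside the circle, whereas for CCND2, EFNB2, ID2 and OXTR it lies between the others.

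Probe sets of a gene share the library, so they are not replicates of the treatment, and some may overlap in the stretch of mRNA they read. Among the 332 private lower genes with at least 2 probe sets at or above the filter level, 229 (69.0%) were past 2-fold in at least 2 of them, and so were 90 (59.2%) of 152 private higher genes. For the shared genes these shares were 70.5% (74 of 105) and 53.3% (32 of 60). By the stricter count of genes past 2-fold in all such probe sets, the private genes reached 41.6% on the lower side and 43.4% on the higher side, and the shared genes 50.5% and 30%. These differences were not tested.

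Several private genes were read many times. CTNNB1, which encodes beta-catenin of adherens junctions and WNT signalling, was lower in all 8 of its probe sets at or above the filter level, from -2.19 to -3.36, while siAkt1-58 gave -0.15 to -0.49. HINT1, a nucleotide hydrolase, was lower in all 5, from -2.78 to -3.21. HIPK2, a kinase that acts on p53, was past 2-fold in 6 of 8 and at 0 in another. SMAD5, a transducer of bone morphogenetic proteins, gave -1.39 to -2.21 in 5 probe sets. SPARC, a matrix glycoprotein, read 10.82 with siNT, 8.54 with siAkt1-22 and 10.35 with siAkt1-58 and was past 2-fold in 8 of 9. On the other side GBP1 was higher in all 5 of its probe sets, from 2.53 to 3.64, and TSPAN2, a tetraspanin, in all 3, from 1.41 to 2.19.

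**Figure D3:**
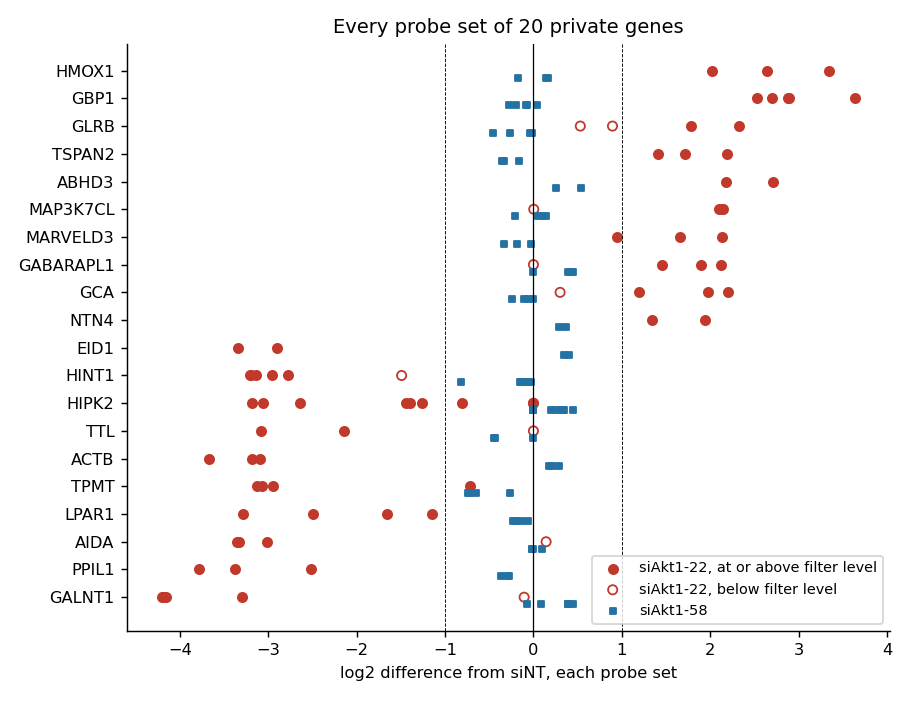
Log2 difference from siNT of every probe set of the 10 private lower and 10 private higher genes with the largest differences among those past 2-fold in at least 2 probe sets; circles are siAkt1-22 (open where the probe set was below the filter level) and squares siAkt1-58. The siAkt1-22 circles lie beyond the 2-fold lines for most probe sets, and the squares lie between them.

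Among the bright genes with large differences were those of cytoplasmic actin. ACTB, cytoplasmic beta-actin, read 12.1 with siNT, 9.03 with siAkt1-22 and 12.3 with siAkt1-58, and its 3 probe sets gave -3.09, -3.67 and -3.18. ACTG1, the gamma isoform, read 12.45, 9.84 and 12.34, with 5 probe sets from -2.57 to -2.98. All these probe sets bear the array's mark for probes that can pair with more than 1 sequence, and the isoforms are nearly identical, so their signals cannot be fully separated. The array's own control sets for beta-actin gave -3.21 at the 3' end, -3.62 in the middle and -4.04 at the 5' end with siAkt1-22, and 0.18 to 0.25 with siAkt1-58. The same sets for GAPDH, a glycolytic enzyme often used as a reference, gave -0.08, -0.09 and -0.08. MYH9, a heavy chain of non-muscle myosin, was lower by -1.81. Among all 27 measured genes of actin, myosin and focal adhesion these 3 were the only ones at least 2-fold lower. They made up 11.1%, against 5.97% of all genes, and the list's median was 0.32. MYL12B (1.75) was the only one at least 2-fold higher, and it was shared, at 2.04 with siAkt1-58.

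Single members of other abundant families were also lower. In a list of 47 measured cytosolic ribosomal protein genes, RPS24 (12.7 with siNT, 10.4 with siAkt1-22 and 12.8 with siAkt1-58) and RPL10A (11.7, 9.58 and 11.8) were at least 2-fold lower, both private, and the list's median was 0. That share, 4.26%, was not above the 5.97% of all genes. RPL13A (-1.32) and RPS15A (-1.11), which are not on the list, were private and lower as well. They were picked after their values were seen, so they do not widen what the list shows. A dim RPS24 probe set gave 0.17. PDIA6, a protein disulfide isomerase of the endoplasmic reticulum, was lower by -2.73 to -3.24 in 3 probe sets, while 29 measured genes of the ATF4 and unfolded protein responses had a median of -0.09. In that list the stress factor DDIT3 (1.62 and 1.53 in its probe sets) and ASNS, asparagine synthetase (1.04), were private and higher, while MTHFD2, a mitochondrial folate enzyme (-1.20), and TRIB3, a pseudokinase (-1.01), were private and lower. The list held 3 members past 2-fold on each side, 10.3% beside 4.40% (higher) and 5.97% (lower) of all genes. Of 26 proteasome genes none was at least 2-fold from siNT, 1 of 30 respiratory chain genes was (NDUFA2, 1.35), and their medians were 0.18 and 0.30.

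Interferon-related genes were higher in part with siAkt1-22. The 4 lists for RNA sensing, interferon signalling, interferon-stimulated effectors and antigen presentation held 73 distinct measured genes, of which 22 (30.1%) were at least 2-fold higher, against the 4.40% of all genes, and 3 were at least 2-fold lower. Of the 22, 13 were private, 4 intermediate, 2 shared (IRF9 and OAS1) and 3 opposite. Interferon signalling runs from receptors through JAK kinases to the factor ISGF3, of which IRF9 is the DNA-binding part, and ISGF3 binds a short element in the promoters of its targets.

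Members are given by their place in that pathway. Among the sensors of RNA, RIGI read 6.67 with siNT, 7.91 with siAkt1-22 and 6.97 with siAkt1-58, and IFIH1 read 5.52, 6.76 and 6.0. Both were highest with siAkt1-22, and the other 9 measured sensing genes were under 2-fold, with a list median of 0.15. The 7 interferon ligands on the array were all below the filter level on average, between 2.53 and 4.11, and their differences ran from -0.14 to 0.24. The kinase JAK1 was lower in all 3 probe sets (-1.57, -1.16 and -1.36), and the lambda receptor IFNLR1 was at -1.26. IRF9 read 5.43, 8.63 and 6.51, and its 4 probe sets gave 1.24 to 3.20. With siAkt1-58 they gave 0.13 to 1.08, so the shared class of IRF9 rests on the brightest. USP18, which dampens the interferon receptor, read 4.13, 6.02 and 3.88.

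Among the effectors, 12 of 35 measured genes were at least 2-fold higher (34.3%, against 4.40% of all genes) and none was 2-fold lower. Of the 35, 30 were above siNT, against 48.5% of all genes. The median of the 35 was 0.57 with siAkt1-22 and 0.12 with siAkt1-58. GBP1, a guanylate-binding protein, read 6.70 with siNT, 9.40 with siAkt1-22 and 6.51 with siAkt1-58. IFIT1, which binds foreign RNA ends, read 6.81, 8.77 and 7.0. ISG15, a ubiquitin-like modifier, read 6.65, 8.08 and 6.83. In these 3 genes siNT and siAkt1-58 lay within 0.19 of each other. HERC5, the ligase for ISG15, read 3.67, 5.53 and 3.15, and MX1, an antiviral GTPase, 4.12, 5.36 and 4.19, both dim without siAkt1-22. HERC5 passed the filter only through its siAkt1-22 value, so its opposite class rests on values below the level, and without it 21 of 72 interferon-related genes were at least 2-fold higher. OAS1 differed from these: it read 4.94, 6.61 and 6.46, and was higher with both siRNAs against AKT1. Only 2 of its 4 probe sets were past 2-fold. The others gave 0.81 and 0.50 with siAkt1-22 and 0.50 and 0.36 with siAkt1-58.

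Antigen presentation genes had the highest median of the 41 lists with at least 5 measured members, 0.93 with siAkt1-22 and 0.29 with siAkt1-58. At least 2-fold higher values were found for 7 of the 15 (46.7%, against 4.40% of all genes). The class I heavy chain gene HLA-B read 8.85 with siNT, 10.7 with siAkt1-22 and 9.36 with siAkt1-58. HLA-C (1.23 and 0.66) and HLA-F (1.61 and 0.64) were likewise highest with siAkt1-22 and partly higher with siAkt1-58. These genes resemble each other, so their probes may share signal. The immunoproteasome subunits PSMB9 (8.30, 9.56 and 8.41) and PSMB8 (9.15, 10.3 and 9.57) and the class I transactivator NLRC5 (5.73, 7.48 and 6.09) were private. PDIA3, a chaperone of class I loading, was at -1.03.

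**Figure D4:**
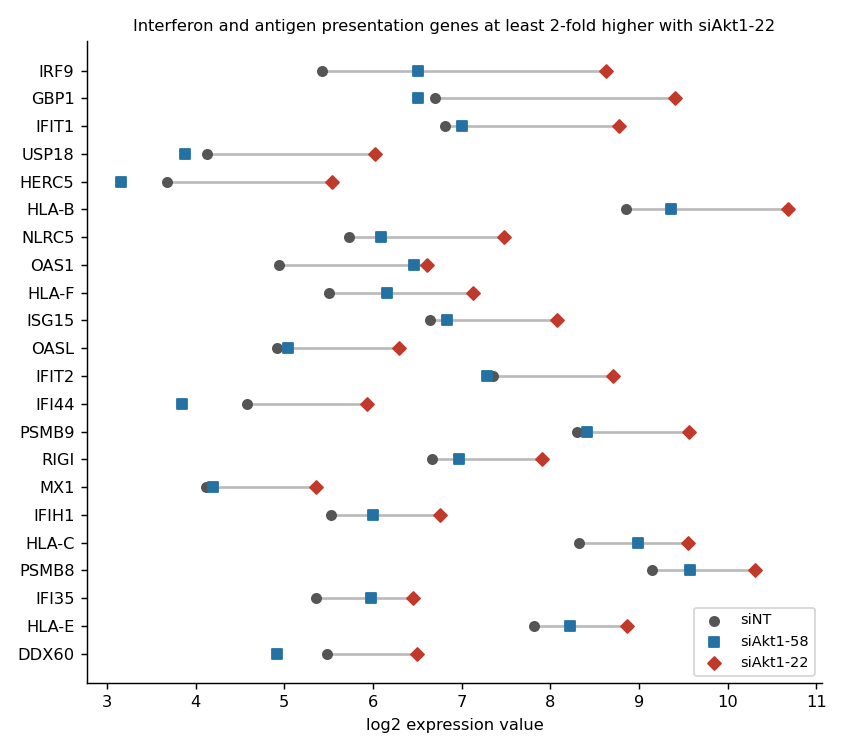
Log2 expression values in the siNT (circles), siAkt1-58 (squares) and siAkt1-22 (diamonds) libraries of the 22 interferon and antigen presentation genes at least 2-fold higher with siAkt1-22. The diamond is the highest of the 3 values for each gene; for OAS1 the square lies close to it, and for HERC5, IFI44 and DDX60 the square lies below siNT.

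Promoter sequences were read because these genes were higher together. In RefSeq promoters (GRCh38.p14, 250 bases before to 50 after the start), the core of the interferon-stimulated response element (GAAA, any 2 bases, GAAA), searched on both strands, was present in 29 (50%) of the 58 interferon list genes with a promoter, in 2.81% of the measured genes with one and in 3.65% of all 27305 promoters. It was present in 9 (52.9%) of the 17 that were at least 2-fold higher and in 20 (48.8%) of the other 41, so the letters did not separate members by size of difference. Of the private genes, 5.70% of those higher (13 of 228) and 1.48% of those lower held it. The 13 include GBP1, IFIT1, ISG15, MX1 and IFIH1 of the interferon lists, so the 5.70% is not separate from the list shares. The other element searched, that of STAT factors (TTC, any 3 bases, GAA), which reads the same on both strands, was present in 23.5% of the 17, in 17.1% of the 41 and in 6.26% of the measured genes. The 3 members with the largest differences among those with a match to the interferon-stimulated response element core are shown, with these matches in capitals.
GBP1, chr1:89065159-89065458, minus strand: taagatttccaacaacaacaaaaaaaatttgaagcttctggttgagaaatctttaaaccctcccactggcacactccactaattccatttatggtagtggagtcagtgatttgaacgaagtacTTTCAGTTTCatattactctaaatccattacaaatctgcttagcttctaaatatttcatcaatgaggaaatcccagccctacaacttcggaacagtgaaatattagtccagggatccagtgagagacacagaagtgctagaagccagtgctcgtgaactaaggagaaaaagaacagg
IFIT1, chr10:89392373-89392672, plus strand: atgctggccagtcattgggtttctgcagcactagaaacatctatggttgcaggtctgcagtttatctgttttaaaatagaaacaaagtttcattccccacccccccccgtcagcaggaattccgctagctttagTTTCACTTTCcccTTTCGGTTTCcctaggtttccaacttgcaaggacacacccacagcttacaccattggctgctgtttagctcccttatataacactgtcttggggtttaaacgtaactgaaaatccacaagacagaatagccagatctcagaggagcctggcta
HERC5, chr4:88456869-88457168, plus strand: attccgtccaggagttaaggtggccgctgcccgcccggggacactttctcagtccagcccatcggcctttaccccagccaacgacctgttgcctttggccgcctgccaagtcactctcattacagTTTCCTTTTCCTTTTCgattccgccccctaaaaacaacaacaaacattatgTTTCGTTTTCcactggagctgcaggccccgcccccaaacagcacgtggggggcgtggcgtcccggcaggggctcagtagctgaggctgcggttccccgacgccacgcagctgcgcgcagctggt
The capitals in all 3 are the core read from the other strand (TTTC, any 2 bases, TTTC). In HERC5 a pair of matches overlap in 1 run.

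RNA interference genes were lower in part. Of the 14 measured, DICER1, AGO1 and XPO5 were at least 2-fold lower (21.4%, against 5.97% of all genes), all private, none was 2-fold higher, and the median was -0.41 with siAkt1-22 and -0.04 with siAkt1-58. DICER1, which cuts microRNA precursors, read 9.46 with siNT, 7.04 with siAkt1-22 and 9.31 with siAkt1-58, with 4 probe sets from -1.75 to -2.43. AGO1, an Argonaute, read 7.61, 5.26 and 7.63, but its dimmer probe set gave -0.37. XPO5, which exports precursors from the nucleus, read 6.28, 4.71 and 6.29, with -0.41 in its other probe set. AGO2, the Argonaute that cleaves target mRNA, was at -0.84. Members on the other side were AGO4 (0.56) and TNRC6B, an Argonaute partner, which was higher in all 10 of its probe sets, from 0.21 to 1.18, and was at 0.90 with siAkt1-58.

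FOXO targets were higher in part, read here because AKT restrains FOXO factors. Of 22 measured FOXO factors and targets, 8 were at least 2-fold higher (36.4%, against 4.40% of all genes) and 1 lower, with medians of 0.60 with siAkt1-22 and 0.12 with siAkt1-58. FBXO32, the ubiquitin ligase atrogin-1, read 7.52 with siNT, 9.87 with siAkt1-22 and 7.66 with siAkt1-58. GABARAPL1, a protein of autophagosome membranes, read 7.37, 9.49 and 7.75, and the receptor gene ERBB3 5.60, 7.26 and 5.97, with 0.99 and 0.02 in its dimmer probe sets. All of these were private, whereas TXNIP, a brake on glucose uptake, was shared in all 5 of its probe sets. RBL2, the pocket protein p130, was lower (-1.65). Autophagy and lysosome genes had a median of 0.45, with 27 of 32 above siNT, against 48.5% of all genes. Of the 32, 4 were at least 2-fold higher (12.5%, against 4.40% of all genes). They included BECN1 (from 0.82 to 1.19 in 6 probe sets) and the sialidase NEU1 (1.33).

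PRKACA and SMAD5 belong to lists with other lower members. Of 12 protein kinase A genes 3 were at least 2-fold lower (25%, against 5.97% of all genes), with PRKACB, the other main catalytic subunit, intermediate at 8.94 with siNT, 7.31 with siAkt1-22 and 8.43 with siAkt1-58, and the anchoring protein AKAP1 private at -1.26. Of 19 TGF-beta receptor and SMAD genes 4 (21.1%) were at least 2-fold lower and none higher, with SMAD5 the one private member, with medians of -0.21 and 0.10.

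Lipid, glucose and matrix genes included private decreases. Of 26 measured cholesterol and fatty acid genes 5 were at least 2-fold lower (19.2%, against 5.97% of all genes), all private, and 1 higher, with medians of -0.29 and 0.08. ACLY, which makes cytosolic acetyl-CoA, read 10.2 with siNT, 8.20 with siAkt1-22 and 10.5 with siAkt1-58. The desaturase SCD read 10.6, 8.73 and 10.9. PMVK, a kinase of the mevalonate pathway, was higher by 1.12. In the glycolysis list the glucose transporter SLC2A1 (9.20, 7.60 and 9.25) and PDK1, which restrains pyruvate dehydrogenase (6.71, 4.96 and 6.83), were the 2 of 27 genes past 2-fold, a share of 7.41% that is near the background. Of 13 mesenchymal genes 4 were at least 2-fold lower (30.8%, against 5.97% of all genes). They were SPARC, the intermediate COL5A1 (-1.27), THBS1 (-1.24) and the intermediate filament VIM (-1.23), the last in both its probe sets. THBS1 was private by its brightest probe set, but the 4 others gave -0.60 to -0.91 with siAkt1-58.

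Cytokine genes were divided. IL1B and IL1A, the interleukin-1 ligands, read 8.19 and 9.95 with siNT and 5.72 and 7.87 with siAkt1-22, while siAkt1-58 gave 7.26 and 9.64. CCL5, a chemokine, read 4.86, 6.66 and 4.88. IL6 (1.11) and TNFAIP3 (1.22), an NF-kappaB inhibitor, were higher as well, and the median of the 19 measured genes was 0. Of the 19, 3 were at least 2-fold higher (15.8%, against 4.40% of all genes) and 2 lower (10.5%, against 5.97%).

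Cell cycle genes were lower in part, and most of those past 2-fold were shared or intermediate. Of 41 measured G1/S genes, 10 were at least 2-fold lower with siAkt1-22 (24.4%, against 5.97% of all genes), 8 of them shared, and the median was -0.57 with siAkt1-22 and -1.30 with siAkt1-58. E2F7, a repressor among the E2F factors, was the only private one, at 9.56 with siNT, 6.60 with siAkt1-22 and 9.14 with siAkt1-58, though a dim probe set gave 0. CDK6, a kinase partner of D cyclins, was lower in 4 of 4 probe sets, from -1.51 to -2.31, with -0.62 to -0.74 for siAkt1-58. CDK4, its relative, was higher by 1.44 in the siAkt1-22 library. Of 40 G2/M genes 7 were at least 2-fold lower (17.5%, against 5.97% of all genes), 6 of them intermediate. Among the 7, MKI67 was past 2-fold in all 6 probe sets (-2.18 to -2.65). DNA repair genes had the lowest median of the 41 lists, -0.99 with siAkt1-22 and -1.06 with siAkt1-58. Of these 22 genes, 10 were at least 2-fold lower (45.5%, against 5.97% of all genes), 9 of them shared. Shared members included NBN of the break-sensing complex (-1.40 to -2.01 in 5 probe sets) and the helicase BLM (-1.91). The single private member of the 10 was XRCC5, the Ku80 subunit (10.4, 8.82 and 10.2).

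**Figure D5:**
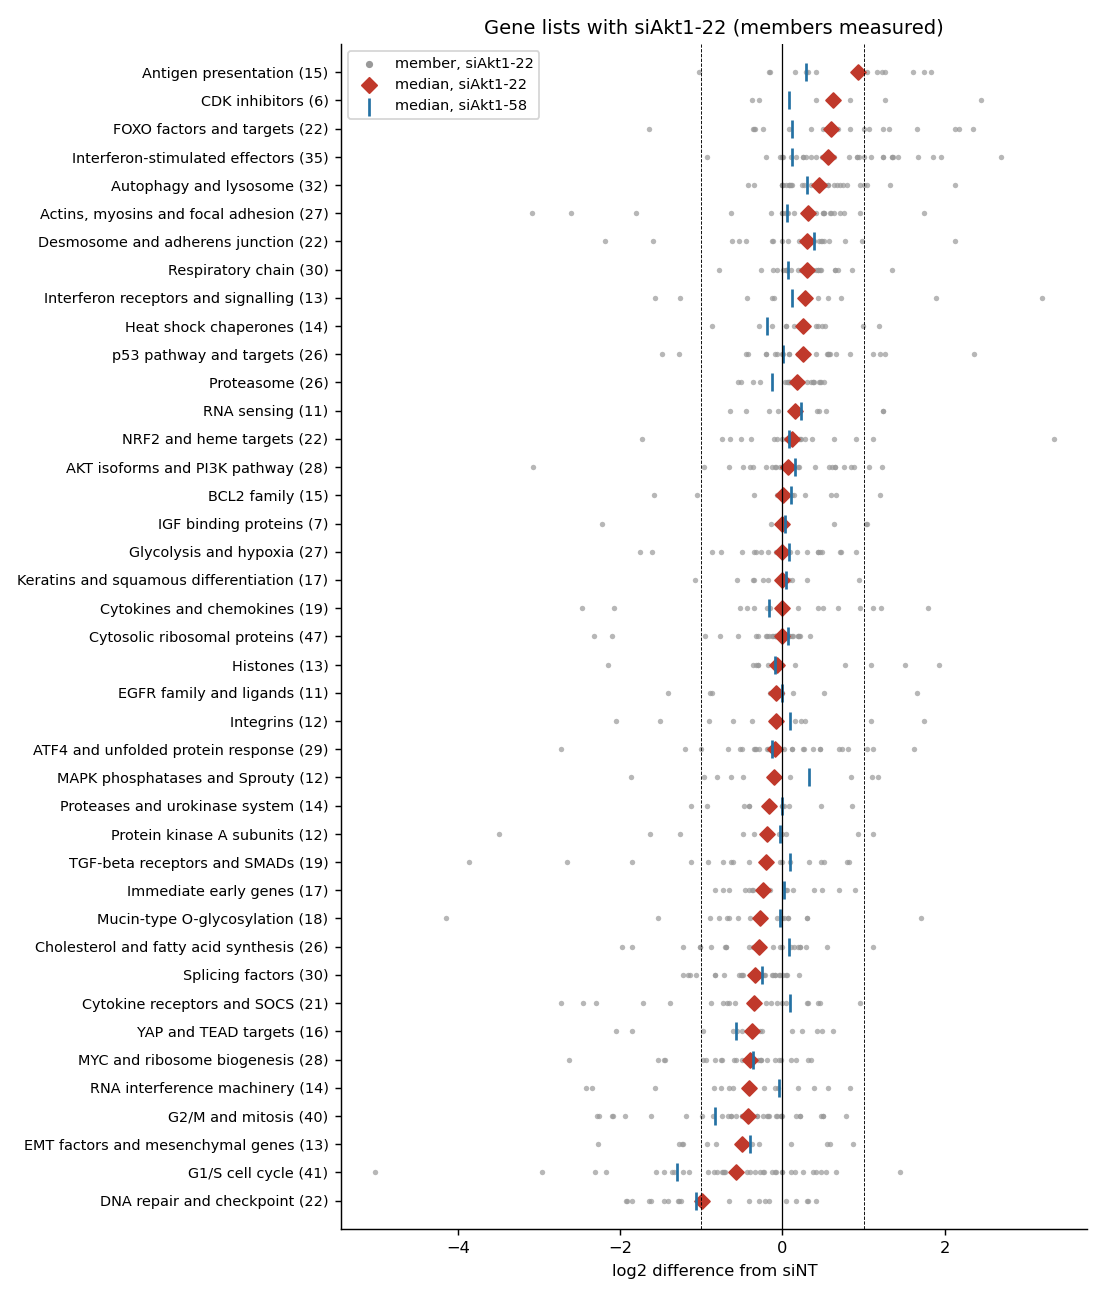
Log2 differences from siNT for the measured members of each list (grey points, siAkt1-22) with the list's median for siAkt1-22 (diamonds) and siAkt1-58 (bars); the number of measured members is in brackets and dashed lines mark 2-fold. Antigen presentation (0.93) and DNA repair (-0.99) stand at the ends, and the diamonds and bars lie farther apart for antigen presentation than for DNA repair.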

How the data were processed

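The 3 arrays gave 49386 probe sets, deposited by the authors as log2 expression values. Per the submitters' processing notes the method was RMA, with version and settings not given in the sources used here. Probe sets with 1 gene (45253) were named through the platform annotation and RefSeq symbols. The 2713 unlisted, 1327 with several genes and 93 controls were not used as genes. The probe set with the highest mean stood for its gene, and genes with a mean under 3.93 were not compared. Differences were computed in Python 3.11.15 with pandas 2.3.3, and the class rule was tested on simulated data. Each group had 1 library, so no gene was tested, and the labels do not say whether the libraries came from separate cultures.

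Named genes come from this rule: AKT1, AKT2, ACTB and GAPDH, the 15 at each end, 10 private genes on each side with 2 probe sets past 2-fold, and of each of 42 lists up to 4 members on the side of its median and 2 on the other. ASNS, DDX60, HLA-C, IFI44, IL6, ISG15, MX1, MYH9, PSMB8, RPL13A, RPS15A and XRCC5 fall outside this rule and were chosen after their values were seen. Genes of the cell type check come from marker lists. Members, lists and rules were chosen with earlier results of these data known. Promoters were matched by symbol for 10414 of the 12779 genes. Alternatives were averaged probe sets, other filters, median centring, quantile normalization, loess, 1.5-fold, other limits for siAkt1-58 and the probe set as unit.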

Additional observations from a re-analysis of the deposited data

Results flagged for a closer look

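Of the 12779 genes measured, 22 lay at least 2-fold to opposite sides of siNT with the siRNAs against AKT1. Of these, 10 were lower and 12 higher with siAkt1-22. The difference was not tested, as each group had 1 library, and both values use the same siNT library. Among the genes chosen for the text, the receptors were lower with siAkt1-22. TGFBR2 was at -2.65 with siAkt1-22 and 1.11 with siAkt1-58, BMPR2 at -1.13 and 1.34, and the interleukin-6 receptor gene IL6R at -1.71 and 1.73. SOCS2, an inhibitor of cytokine signalling, was at -2.31 and 1.63, and the integrin gene ITGB8 at -1.51 and 2.58. TNFAIP3 went the other way, at 1.22 and -1.68. These values are from the brightest probe set of each gene, and no other probe set of these genes was past 2-fold on both sides. The next brightest gave -1.02 and 0.72 for TGFBR2, -0.67 and 1.70 for SOCS2, and 0.99 and -1.31 for TNFAIP3. The other ITGB8 probe sets were below the filter level.

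Signal also differed in probe sets outside the gene comparison. The 2713 probe sets that the annotation does not list held 42 past 2-fold on the higher side with siAkt1-22 and 118 on the lower side (1.55% and 4.35%). The 1327 with several genes held 32 on the higher side and 29 on the lower side (2.41% and 2.19%). Over the 45253 probe sets with 1 gene, unfiltered like these, the shares were 2.50% and 4.19%.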

How the results depend on the processing

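Decreases stayed more numerous than increases under every alternative except the 1.5-fold limit, which gave 1574 genes higher and 1536 lower, and 985 and 907 private ones. Averaging the probe sets of a gene left 370 genes at least 2-fold higher. With probe sets as the unit, 1101 were higher and 1865 lower, and 547 and 1016 were private. Asking siAkt1-58 to lie within 0.25 of siNT left 148 private higher and 233 private lower genes. The other counts stayed within 1.5 times under a different filter, median centring, quantile normalization or loess, which moved the median of all genes by at most 0.03 in size. No list median of at least 0.25 in size and no named gene past 2-fold changed sign under the alternatives run for them, although averaging moved 55 of 271 named genes by over 1.5-fold. No paired analysis was possible because each group had 1 library, which also leaves no replicate to omit. Dim signal limits how far a gene can read lower.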

Other observations

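Further lists held members past 2-fold on one or both sides. Of 12 measured integrin genes, ITGB6 (1.74 with siAkt1-22 and -0.11 with siAkt1-58) and ITGB2 (1.09 and -0.10), the beta chain of leukocyte integrins, were at least 2-fold higher. Another 2 were at least 2-fold lower, so each side held 16.7%, beside 4.40% (higher) and 5.97% (lower) of all genes. ITGA6, the laminin receptor chain of hemidesmosomes, was at -2.05 and 0.72. DUSP6, a phosphatase that acts on ERK, was at -1.87 and 0.41. The list of 12 MAPK phosphatase and Sprouty genes had a median of -0.10 and held DUSP10 (1.18) and DUSP14 (1.11) on the higher side. Its shares past 2-fold were 16.7% higher and 8.33% lower, beside 4.40% and 5.97% of all genes. In the BCL2 family the pro-apoptotic BBC3 was at 1.20 and 0.20 and BNIP3L at -1.58 and 0.33. Other probe sets gave less with siAkt1-22, 0.14 for BBC3 and -0.61 to -0.74 for BNIP3L. The small heat shock protein gene HSPB1 was at 1.19 and 0.05, in a list of 14 chaperone genes with a median of 0.25. At least 2-fold higher were 6.67% of the BCL2 family and 7.14% of the chaperone genes, beside 4.40% of all genes. At least 2-fold lower were 13.3% of the BCL2 family and none of the chaperone genes, beside 5.97% of all genes.

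Lists on RNA and ribosome production were lower in most of their members. Of 30 splicing factor genes 26 were below siNT, against 35.7% of all genes. At least 2-fold lower were 4 of the 30 (13.3%, against 5.97% of all genes). These were SNRPD1, SRSF3, PTBP1 and SRSF10, all of them intermediate. Over the 30 genes the medians were -0.33 (siAkt1-22) and -0.25 (siAkt1-58). Of 28 MYC and ribosome biogenesis genes 24 were below siNT, with medians of -0.40 and -0.36. At least 2-fold lower were 4 of the 28 (14.3%, against 5.97% of all genes). ODC1, which starts polyamine synthesis, was shared (-2.63 and -1.13), the helicase DDX21 intermediate (-1.53 and -0.63) and the nucleolar protein NCL private (-1.45 and -0.27). Histone genes were split, with H1-2 at -2.15 and H2BC5 at 1.93, and near-identical copies make these values uncertain.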
